A study of Marchantia polymorpha and Arabidopsis thaliana with 54 samples.

Results

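Unfolded protein signalling in the endoplasmic reticulum (ER) was examined through 10 Arabidopsis thaliana genes, out of 27655 genes in the deposited count table. They were chosen by gene identifier, with earlier results of these data known. They comprised the stress sensors IRE1A and IRE1B, the transcription factors BZIP60, BZIP28, BZIP17, NAC103, NAC062 and NAC089, and the ER-linked proteins BAG7 and TIN1. All 10 passed the filter on low counts, as did 22696 genes in total. The study is on heat shock factors and heat-driven chromatin changes in plants, and these libraries set a line labelled as lacking 3 HSFA1 genes against the wild type. RNA was measured in whole seedlings 7 days old, grown under continuous light at 22 °C on agar with half-strength MS salts and sucrose. Heated seedlings received 37 °C for 1 h and control seedlings 0 h.

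There were 3 libraries of heated seedlings labelled eTK, 6 of control seedlings labelled eTK, 3 of heated Col-0 and 6 of control Col-0. The label eTK stands for a line with hsfa1a, hsfa1b and hsfa1d knocked out together, and the insertion alleles and any outcross are not given. Col-0 is the wild-type accession. Each group had 3 libraries in batch 1, and the other 3 control libraries of each line were in batch 2, so every heated library came from batch 1. Nothing states that replicates were separate cultures, and p-values therefore measure the spread between these libraries, which may be technical.

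In plants, unfolded proteins in the ER are sensed through IRE1, a membrane kinase and ribonuclease that cuts an intron out of BZIP60 mRNA in the cytoplasm, so that the spliced form encodes a soluble nuclear factor. BZIP28 and BZIP17 reach the same end by another route: they are made as membrane proteins, travel from the ER to the Golgi under stress and are cut there by the proteases S1P and S2P. The released factors raise genes for ER chaperones, folding enzymes and the degradation of misfolded proteins. Heat is a classical trigger of both arms, and much of that regulation acts on splicing or proteolysis, which a count of reads per gene does not show.

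The BZIP60 coding sequence is shown because it carries the site on which IRE1 acts. It was read from the TAIR10.1 genome at chr1:16136262-16136315 on the minus strand. Capitals mark 2 copies of the loop motif CNGNNGN, the 7 bases at which IRE1 cuts.
BZIP60 loop region: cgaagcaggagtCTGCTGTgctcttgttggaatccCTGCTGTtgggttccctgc
The motif matched at 19 places in the 888-base coding sequence, and this was the 1 pair whose starts lay 23 bases apart, at coding positions 647 and 670. The unspliced reading frame has 295 codons before its stop. Removal of 23 bases between the loops shifts the frame and brings the stop to codon count 258. Counts of BZIP60 below pool both forms.

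The 250 bases before the annotated starts of TIN1, BZIP28 and NAC062 are shown because TIN1 and BZIP28 had the largest heat responses of the 10 genes in Col-0 and NAC062 responded in both lines. They come from RefSeq's TAIR10.1 at chr5:25784154-25784403 on the plus strand, chr3:3378918-3379167 on the plus strand and chr3:18364960-18365209 on the minus strand. Capitals mark matches to searched motifs.
TIN1 promoter: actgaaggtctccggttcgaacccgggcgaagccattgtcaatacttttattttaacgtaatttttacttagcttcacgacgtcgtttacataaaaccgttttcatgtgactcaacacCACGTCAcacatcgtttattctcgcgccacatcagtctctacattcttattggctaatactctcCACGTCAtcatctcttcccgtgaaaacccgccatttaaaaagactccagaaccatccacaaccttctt
BZIP28 promoter: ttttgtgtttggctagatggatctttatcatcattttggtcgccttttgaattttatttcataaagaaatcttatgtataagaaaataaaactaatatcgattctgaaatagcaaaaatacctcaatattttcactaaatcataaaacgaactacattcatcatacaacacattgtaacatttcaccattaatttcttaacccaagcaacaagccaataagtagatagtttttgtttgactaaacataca
NAC062 promoter: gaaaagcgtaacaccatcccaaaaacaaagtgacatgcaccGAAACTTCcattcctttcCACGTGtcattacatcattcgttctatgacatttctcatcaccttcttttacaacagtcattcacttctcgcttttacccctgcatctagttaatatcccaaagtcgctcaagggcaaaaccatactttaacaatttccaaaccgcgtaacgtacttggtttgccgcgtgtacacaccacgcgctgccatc

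Motifs were searched on both strands of the same window in 27444 genes. TIN1 held 2 copies of TGACGTG, the core of the unfolded protein response element, read on the opposite strand as CACGTCA at 132 and 68 bases before the start. That core occurred in 2.9% of all promoters and at least 2 copies occurred in 0.189%. The TIN1 window also overlaps the annotated gene AT5G64505 at its far end. NAC062 held GAANNTTC, a head-to-head pair of heat shock element units found in 9.55% of promoters, and the G-box CACGTG, found in 6.49%. BZIP60 also held a G-box, and BZIP17 held TTCNNGAA, the tail-to-tail pair present in 7.68% of promoters. The BZIP28 window held none of these 4 motifs, which concerns only the letters in that window.

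Libraries held 58370609 to 110875442 counts. Levels below are counts scaled to library size and TMM factor (CPM), and the mean TMM factor was 1.02 in heated and 1.11 in control libraries labelled eTK, and 0.655 in heated and 1.11 in control Col-0 libraries. Of the targeted genes, HSFA1B stood at 0.985 to 1.86 CPM in control libraries labelled eTK, against 10.3 to 15.2 CPM in Col-0, and HSFA1D at 5.05 to 6.55 CPM, against 13.7 to 15.5 CPM. HSFA1A went against its label, at 9.18 to 13.9 CPM in control libraries labelled eTK and 4.68 to 7.09 CPM in control Col-0, and the counts cover the whole gene, so they do not show whether a full-length transcript is made. Leaf and root markers were present in every library, as a whole seedling has. Summed root markers (4 genes) spanned 801 to 954 CPM in heated and 2053 to 3905 CPM in control libraries labelled eTK, and 1287 to 2625 CPM in heated and 2761 to 8002 CPM in control Col-0, and all 4 fell with heat in both lines. Of 3 leaf markers, 2 fell with heat in both lines. Summed seed markers (3 genes) reached 6.19 to 18.4 CPM in heated and 4.46 to 37.7 CPM in control libraries labelled eTK, and 0.185 to 53.3 CPM in heated and 0.135 to 2.05 CPM in control Col-0. The part of these marker shifts in the results below was not tested, and in whole seedlings fewer cells of a type and less RNA per cell cannot be told apart.

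**Figure D1:**
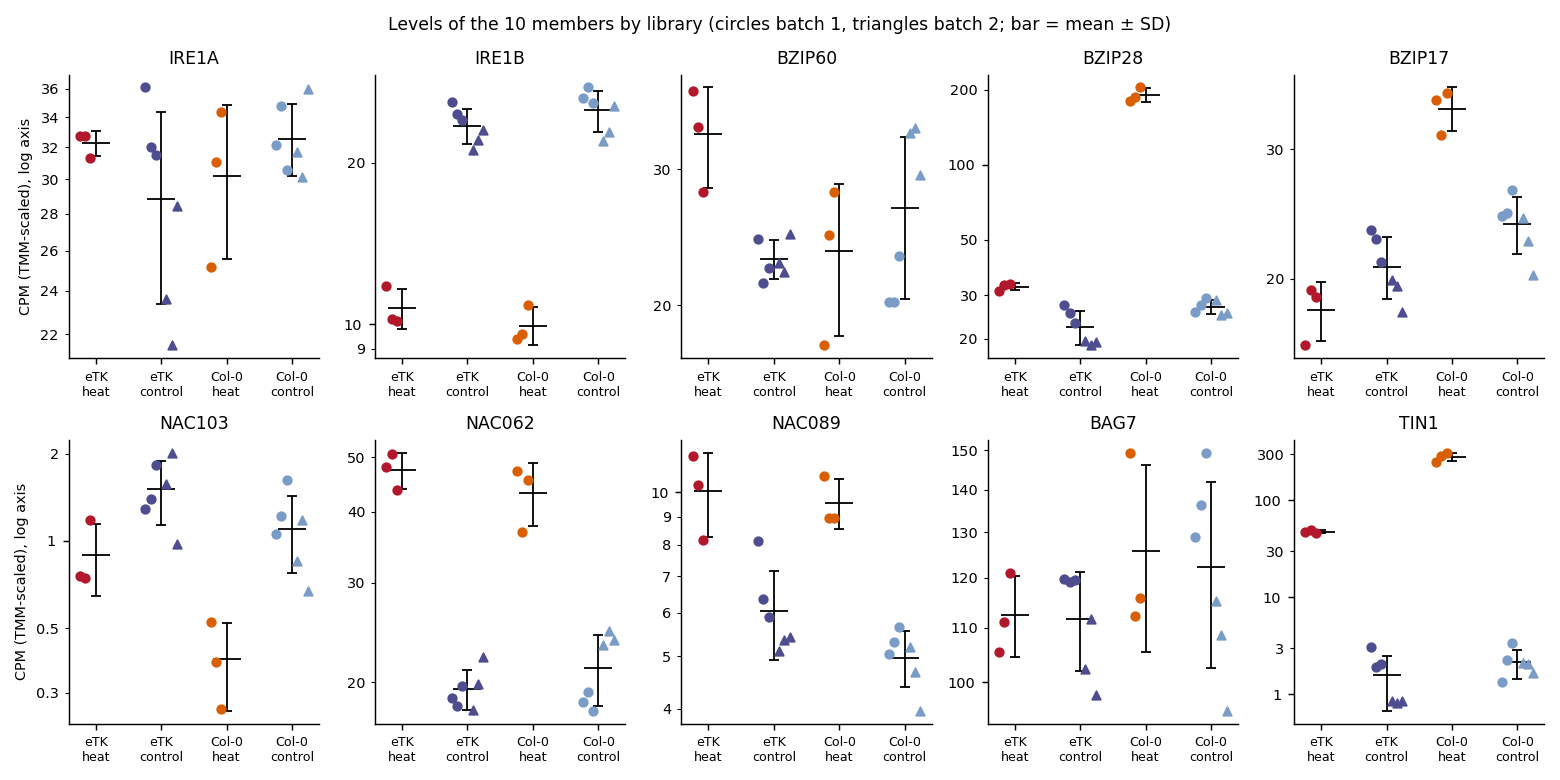
TMM-scaled CPM of the 10 genes in each of the 18 libraries on logarithmic axes, with circles for batch 1, triangles for batch 2 and bars for the group mean ± SD. BZIP28 and TIN1 stood far above all other groups in heated Col-0, IRE1B stood low in both heated groups, and IRE1A and BAG7 overlapped across all 4 groups.

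After heat, 5 of the 10 genes were called higher and 3 lower in the libraries labelled eTK, where 27.0% of all genes tested were called higher and 28.7% lower. In Col-0 heat called 5 of the 10 higher and 2 lower, against 31.2% and 32.4% of all genes. Calls rest on edgeR's quasi-likelihood test with Benjamini-Hochberg adjustment over all genes tested, at an adjusted p below 0.05. The median log2 difference of the 10 genes was 0.25 in the libraries labelled eTK and 0.21 in Col-0, beside medians over all genes of -0.01 and -0.04. With 10 genes these shares were not read as a result about the group, and the account that follows turns on which genes moved and by how much. The largest rises were those of TIN1 in Col-0 and then in the libraries labelled eTK, followed by BZIP28 in Col-0, and the strongest fall of a well-counted gene was that of IRE1B in both lines.

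**Figure D2:**
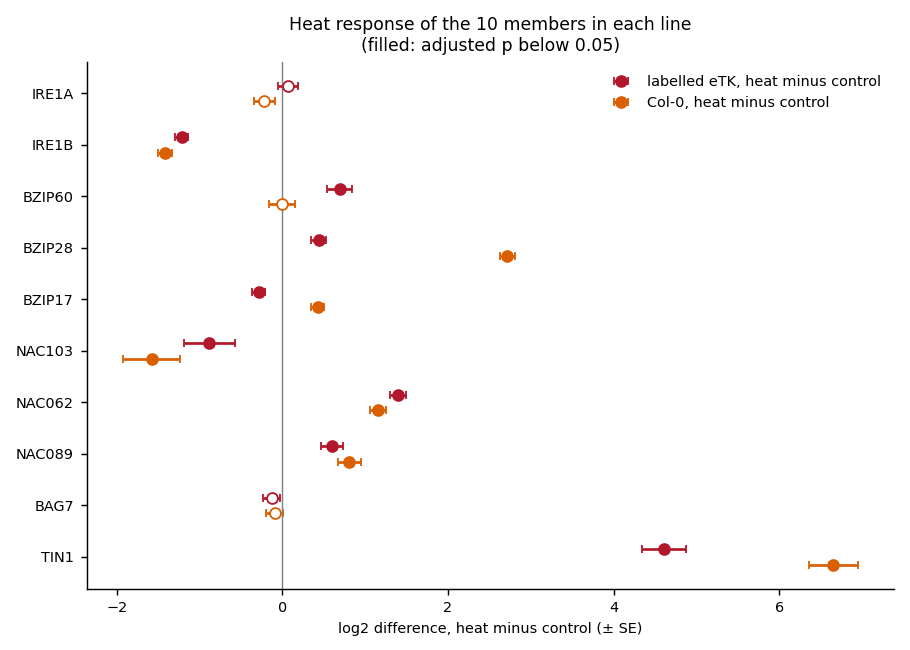
Log2 difference, heat minus control, with its standard error for each of the 10 genes, the libraries labelled eTK above Col-0 in each pair, with filled points where the adjusted p was below 0.05. The 2 lines stood close together for IRE1B, NAC062 and NAC089 and far apart for BZIP28 and TIN1, and BZIP17 stood on opposite sides of 0.

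IRE1A (AT2G17520, chr2:7617151-7621129) and IRE1B (AT5G24360, chr5:8316388-8319981) encode the sensor kinases and ribonucleases of the ER membrane. IRE1B had 11.8, 10.2 and 10.2 CPM in heated libraries labelled eTK, against 21.1 to 25.9 CPM in their controls (median 23.5). In Col-0 it had 9.38, 9.58 and 10.9 CPM after heat, against 22.0 to 27.6 CPM in control (median 25.7). No heated library of either line reached its control range. IRE1B mRNA thus fell by 1.22 ± 0.08 on the log2 scale (SE, adjusted p = 7.89e-10) in the libraries labelled eTK and by 1.42 ± 0.08 (adjusted p = 4.81e-11) in Col-0, that is 2.32-fold and 2.67-fold lower. The difference between the lines in this response, 0.20 ± 0.10, did not pass (adjusted p = 0.171).

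Its paralog IRE1A did not move in the same way. IRE1A had 32.7, 32.8 and 31.3 CPM in heated libraries labelled eTK, against 21.5 to 36.1 CPM in their controls (median 30.0). Heated Col-0 had 25.2, 31.1 and 34.4 CPM, against 30.1 to 36.0 CPM in control (median 32.0). All ranges overlapped, and the log2 differences of 0.06 ± 0.12 (adjusted p = 0.681) and -0.22 ± 0.13 (adjusted p = 0.142) did not pass. With scaling by library size alone, which also lowered the median over all genes in Col-0, IRE1A was called lower in Col-0. Within each library, the 2 paralogs can be set against each other without any scaling between libraries. IRE1A counts averaged 3.02 times those of IRE1B in heated libraries labelled eTK, against 1.22 times in their controls, and 3.02 times in heated Col-0, against 1.30 times in control (geometric means of count ratios, not corrected for length). Every heated library lay above every control library in both lines, with an exact two-sided permutation p of 0.0238 for each, which is the smallest that 3 against 6 libraries allow, and 0.0635 after Benjamini-Hochberg adjustment over 16 ratio tests.

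**Figure D3:**
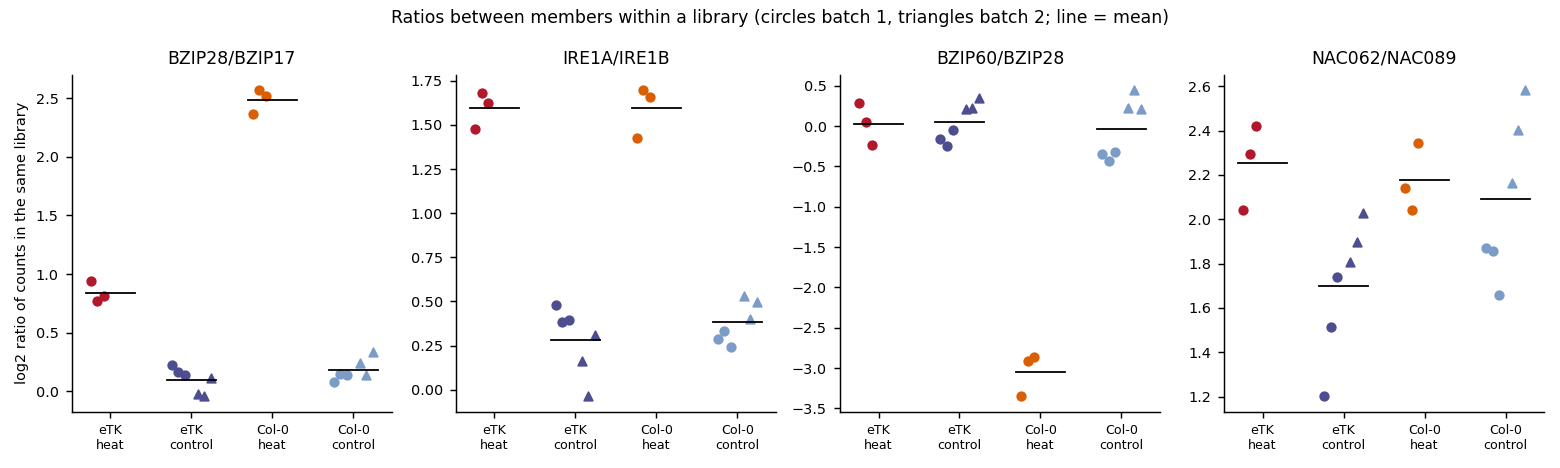
Log2 ratios of 2 members' counts within each library, by group, for BZIP28 over BZIP17, IRE1A over IRE1B, BZIP60 over BZIP28 and NAC062 over NAC089. Heated libraries of both lines lay above their controls for IRE1A over IRE1B, whereas BZIP60 over BZIP28 was low in heated Col-0 alone.

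Among the basic leucine zipper factors, BZIP28 (AT3G10800, chr3:3379168-3381621) showed the widest gap between the lines. It had 31.2, 32.9 and 33.1 CPM in heated libraries labelled eTK, against 19.0 to 27.3 CPM in their controls (median 21.4). Heated Col-0 had 181, 187 and 204 CPM, against 24.9 to 29.1 CPM in control (median 26.5). Heat and control did not overlap in either line, and heated libraries labelled eTK stood only slightly above the Col-0 controls. BZIP28 rose by 0.44 ± 0.09 on the log2 scale (adjusted p = 0.000371), or 1.36-fold, in the libraries labelled eTK and by 2.72 ± 0.09 (adjusted p = 7.01e-15), or 6.57-fold, in Col-0. The response in the libraries labelled eTK was lower by a log2 difference of -2.28 ± 0.12 (adjusted p = 2.14e-11), and -2.44 with batch 1 alone.

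BZIP17 (AT2G40950, chr2:17087565-17090556), the related membrane-bound factor, moved in opposite directions in the 2 lines. It had 16.2, 19.3 and 18.9 CPM in heated libraries labelled eTK, against 18.0 to 23.3 CPM in their controls (median 20.5). Heated Col-0 had 35.0, 31.4 and 35.7 CPM, against 20.3 to 26.4 CPM in control (median 24.3). The Col-0 groups were apart and the groups labelled eTK overlapped across batches, though not within batch 1. BZIP17 fell by 0.29 ± 0.08 in the libraries labelled eTK (adjusted p = 0.00615), a call lost without their heated replicate 1 (-0.21, adjusted p = 0.0533). In Col-0 it rose by 0.43 ± 0.08 (adjusted p = 0.000159), but scaling by library size alone turned this to -0.29. The difference between the lines was -0.71 ± 0.11 (adjusted p = 5.46e-05) and was -0.08 (adjusted p = 0.543) with library size alone. Under library size alone the median over all genes stood at -0.753 in the Col-0 heat response, 0.632 in the difference between the lines and 0.642 between the heated lines.

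The balance of the 2 factors within a library does not depend on that choice. BZIP28 counts averaged 1.79 times those of BZIP17 in heated libraries labelled eTK, against 1.07 times in their controls. In Col-0 they averaged 5.60 times after heat, against 1.13 times in control. All heated libraries exceeded all controls in each line (exact permutation p = 0.0238, adjusted p = 0.0635). Between the heated libraries of the 2 lines the ratios did not overlap either, at the smallest p of 0.1 that 3 against 3 allow.

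BZIP60 (AT1G42990, chr1:16135723-16137463), the splicing target of IRE1, rose only in the libraries labelled eTK by these tests, and its level depended on the batch. It had 37.9, 34.1 and 28.1 CPM in heated libraries labelled eTK, against 21.4 to 24.7 CPM in their controls (median 22.5). Heated Col-0 had 17.7, 24.7 and 28.1 CPM, against 20.2 to 33.9 CPM in control (median 26.3). Heat and control were apart in the first line and overlapped in the other. The difference was 0.69 ± 0.15 (adjusted p = 0.000765) in the libraries labelled eTK and 0.00 ± 0.16 (adjusted p = 0.989) in Col-0, where scaling by library size alone gave -0.72 (adjusted p = 0.000586). Both values rest on a batch term shared by the lines, although the batch difference of BZIP60 was not the same in both, as given below. In batch 1 the means were 33.4 CPM in heated and 22.7 CPM in control libraries labelled eTK, and 23.5 and 21.2 CPM in Col-0. The difference between the lines, 0.70 ± 0.20 (adjusted p = 0.0173), was 0.41 with batch 1 alone (adjusted p = 0.188), 0.53 without heated Col-0 replicate 1 (adjusted p = 0.0509) and 0.61 without heated eTK replicate 1 (adjusted p = 0.0515).

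The BZIP60 level of the controls differed by batch. Controls labelled eTK had 22.7, 22.1 and 24.7 CPM in batch 2 and 24.4, 21.4 and 22.4 CPM in batch 1. The Col-0 controls had 33.4, 33.9 and 29.5 CPM in batch 2 and 20.2, 20.2 and 23.2 CPM in batch 1. The batches overlapped in the first line and were apart in Col-0. Batch 2 did not differ detectably in the libraries labelled eTK (0.07 ± 0.09, adjusted p = 0.582), where 28.9% of genes were called, and was higher in Col-0 (0.65 ± 0.09, adjusted p = 9.14e-05), where 35.9% were called. The difference of these batch differences was -0.58 ± 0.12 (adjusted p = 0.0187), and BZIP60 was the 1 gene of the 10 for which it passed, where 6.09% of 21927 genes were called. Pooled over the lines, batch 2 controls called 2 of the 10 higher (BZIP60 and NAC062) and 4 lower (BZIP17, IRE1B, BAG7 and TIN1), against 21.0% and 17.5% of all genes. In batch 2, 2 of 3 leaf markers (LHCB2.1 and LHCA1) were also lower in both lines. The third, RBCS1A, was higher in controls labelled eTK and not called in Col-0. Of 4 root markers, 1 was higher in controls labelled eTK and 2 in Col-0. The part of these marker shifts in the BZIP60 levels was not tested.

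Within single lines, batch 2 was lower among controls labelled eTK for TIN1 (-1.44 ± 0.30, adjusted p = 0.00269), IRE1A (-0.40 ± 0.10, adjusted p = 0.0117) and BZIP28 (-0.34 ± 0.08, adjusted p = 0.00632). Among Col-0 controls it was higher for NAC062 (0.41 ± 0.08, adjusted p = 0.00177) and lower for BAG7 (-0.34 ± 0.09, adjusted p = 0.00783). For these 5 genes the difference between the lines did not pass, with adjusted p from 0.0887 for IRE1A to 0.379 for BAG7.

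**Figure D4:**
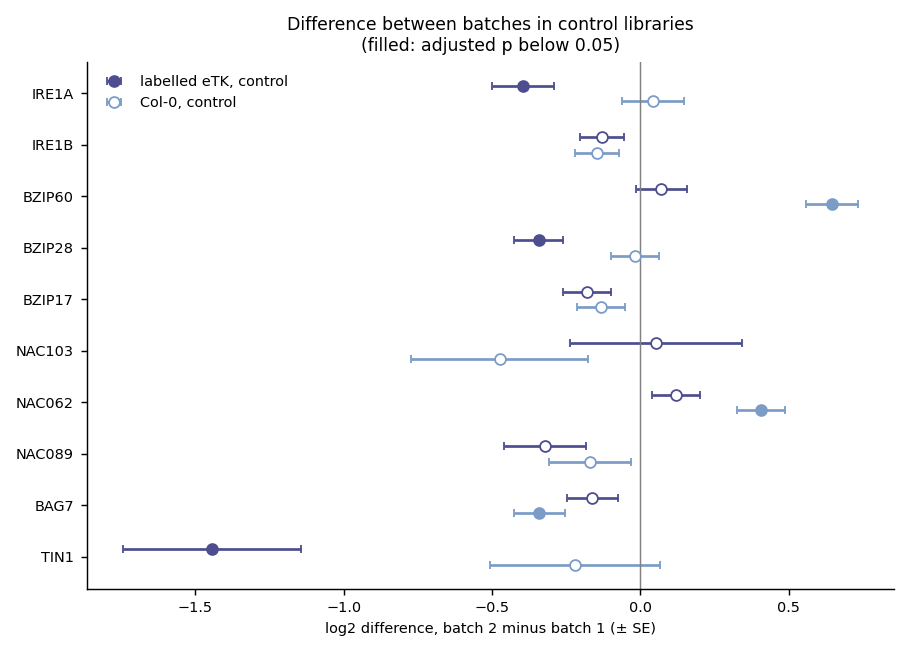
Log2 difference, batch 2 minus batch 1, among control libraries for the 10 genes in each line, with standard errors. BZIP60 and NAC062 were higher in batch 2 of Col-0, TIN1 lower in batch 2 of the libraries labelled eTK, and the lines stood apart beyond the test's threshold for BZIP60.

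The 3 NAC factors are linked to the response in different ways: NAC103 is a downstream target of BZIP60, while NAC062 and NAC089 are membrane-tethered factors that move to the nucleus under ER stress. NAC062 (AT3G49530, chr3:18362443-18364959) had 48.0, 50.6 and 43.7 CPM in heated libraries labelled eTK, against 17.9 to 22.1 CPM in their controls (median 19.2). Heated Col-0 had 47.3, 36.9 and 45.5 CPM, against 17.8 to 24.7 CPM in control (median 21.2). Heated libraries lay above all controls in both lines. NAC062 rose by 1.40 ± 0.10 (adjusted p = 1.16e-09), or 2.64-fold, in the libraries labelled eTK and by 1.15 ± 0.10 (adjusted p = 9.96e-09), or 2.22-fold, in Col-0. Between the lines it differed by 0.25 ± 0.13 (adjusted p = 0.175).

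NAC089 (AT5G22290, chr5:7375839-7377776) rose in both lines from a lower level. It had 11.7, 10.3 and 8.16 CPM in heated libraries labelled eTK, against 5.11 to 8.15 CPM in their controls (median 5.67). Heated Col-0 had 10.7, 8.96 and 8.97 CPM, against 3.97 to 5.64 CPM in control (median 5.12). The groups did not overlap in either line, though in the first the lowest heated library lay only just above the highest control. The log2 differences were 0.60 ± 0.14 (adjusted p = 0.00107) and 0.81 ± 0.14 (adjusted p = 5.57e-05) in the libraries labelled eTK and in Col-0, and the Col-0 value was 0.09 with library size alone (adjusted p = 0.589).

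NAC103 (AT5G64060, chr5:25633455-25635789) was the scarcest of the 10, with 10 to 209 counts per library. It had 0.758, 0.744 and 1.18 CPM in heated libraries labelled eTK, against 0.979 to 2.01 CPM in their controls (median 1.48). Heated Col-0 had 0.526, 0.384 and 0.264 CPM, against 0.675 to 1.62 CPM in control (median 1.12). Groups overlapped in the first line and were apart in the other. NAC103 fell by 0.88 ± 0.31 in the libraries labelled eTK (adjusted p = 0.0216) and by 1.58 ± 0.34 in Col-0 (adjusted p = 0.000563). The call in the libraries labelled eTK was lost without heated eTK replicate 1 (-0.77, adjusted p = 0.0838), without heated replicate 2 (-0.77, adjusted p = 0.0868) and without control replicate 3 (-0.83, adjusted p = 0.0515). Between the lines the response differed by 0.70 ± 0.43 (adjusted p = 0.254).

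TIN1 (AT5G64510, chr5:25784404-25786385), an ER protein of plants first found as induced by the glycosylation blocker tunicamycin, had the largest response of the 10. It had 47.2, 49.5 and 45.8 CPM in heated libraries labelled eTK, against 0.805 to 3.07 CPM in their controls (median 1.39). Heated Col-0 had 251, 286 and 308 CPM, against 1.33 to 3.40 CPM in control (median 2.08). Heat and control were more than an order of magnitude apart in both lines, and the heated groups of the lines did not overlap. TIN1 rose 24.3-fold in the libraries labelled eTK (log2 4.60 ± 0.27, adjusted p = 2.91e-10) and 100-fold in Col-0 (log2 6.65 ± 0.30, adjusted p = 3.32e-12). Between the lines it differed by -2.05 ± 0.35 (adjusted p = 0.000299), and -2.58 with batch 1 alone.

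BAG7 (AT5G62390, chr5:25051978-25054444), an ER-resident co-chaperone of the BAG family, was, with IRE1A, one of the genes with no call in either heat response, in their difference or between the lines. It had 105 to 121 CPM in heated libraries labelled eTK, against 97.7 to 120 CPM in their controls (median 115). Heated Col-0 had 149, 112 and 116 CPM, against 95.1 to 149 CPM in control (median 122). All ranges overlapped, with log2 differences of -0.13 ± 0.10 (adjusted p = 0.289) and -0.09 ± 0.10 (adjusted p = 0.446). Heated libraries labelled eTK against control Col-0, which differ in both line and heat, gave -0.25 ± 0.10 (adjusted p = 0.0382). The Col-0 heat value was -0.23 without heated Col-0 replicate 1 (adjusted p = 0.0429) and -0.81 with library size alone. BAG7 overlaps AT5G62380 on the other strand and the strand setting of the counting is not given, so reads of the 2 genes cannot be told apart.

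Per kilobase of annotated exon, the order of the 10 genes changed with heat. In heated libraries labelled eTK the highest levels were BAG7 at 55.8 ± 3.95, TIN1 at 28.0 ± 1.12, BZIP60 at 27.1 ± 4.03 and NAC062 at 24.1 ± 1.77 CPM per kilobase (SD, n = 3). In their controls they were BAG7 at 55.5 ± 4.79 and BZIP60 at 18.6 ± 1.08, with TIN1 at 0.941 ± 0.542 (SD, n = 6). In heated Col-0 TIN1 stood first at 166 ± 16.8 CPM per kilobase, followed by BZIP28 at 80.2 ± 5.15 and BAG7 at 62.5 ± 10.2 (SD, n = 3). In control Col-0 BAG7 stood first at 60.7 ± 9.79 and BZIP60 next at 21.7 ± 5.17, with BZIP28 at 11.3 ± 0.735 and TIN1 at 1.26 ± 0.416 (SD, n = 6). NAC103 was the lowest in all 4 groups, from 0.224 to 0.865 CPM per kilobase on average.

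The response to heat differed between the lines for 4 of the 10 genes. It was higher in the libraries labelled eTK for BZIP60 and lower for BZIP28, BZIP17 and TIN1, against 12.5% of all genes called higher and 12.6% lower. The other 6 did not pass, which does not show that they responded alike.

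Without heat, 2 of the 10 genes differed between the lines, both lower in the libraries labelled eTK, and none was called higher, against 13.8% and 13.4% of all genes. At an unadjusted p below 0.05 edgeR had 2 of the 10 higher (NAC089 and NAC103) and 3 lower, and DESeq2 called 0 higher after adjustment. BZIP28 averaged 22.3 ± 3.50 CPM in control libraries labelled eTK and 26.8 ± 1.75 CPM in control Col-0 (SD, n = 6 each), a log2 difference of -0.28 ± 0.07 (adjusted p = 0.00458). BZIP17 spanned 18.0 to 23.3 CPM in control libraries labelled eTK and 20.3 to 26.4 CPM in control Col-0, a difference of -0.19 ± 0.06 (adjusted p = 0.0242). Both ranges overlapped between the lines. With batch 1 alone neither passed (-0.11, adjusted p = 0.387, and -0.16, adjusted p = 0.209). The BZIP17 value stayed close to that over all controls, and its batch 1 libraries did not overlap between the lines. BZIP17 also lost its call without Col-0 control replicate 3, 4 or 5 (adjusted p = 0.0651, 0.0785 and 0.0579) and without eTK control replicate 3 or 6 (adjusted p = 0.0699 and 0.0728). TIN1 was at -0.52 ± 0.23 (adjusted p = 0.103) and passed without Col-0 control replicate 1 (-0.72, adjusted p = 0.0049) or eTK control replicate 1 (-0.69, adjusted p = 0.0214). Its control libraries labelled eTK had 0.850, 0.805 and 0.860 CPM in batch 2 and 3.07, 1.92 and 2.07 CPM in batch 1.

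After heat, 2 of the 10 were higher in the libraries labelled eTK and 3 lower, against 23.3% and 23.1% of all genes. BZIP28 averaged 32.4 ± 1.06 CPM in heated libraries labelled eTK and 191 ± 12.2 CPM in heated Col-0 (SD, n = 3 each), or 5.88-fold lower (log2 -2.56 ± 0.10, adjusted p = 1.74e-13). TIN1 averaged 47.5 ± 1.89 and 282 ± 28.5 CPM, or 5.93-fold lower (log2 -2.57 ± 0.28, adjusted p = 8.44e-07). BZIP17 averaged 18.1 ± 1.66 and 34.0 ± 2.33 CPM, a difference of -0.91 ± 0.09 (adjusted p = 1.19e-07). For these 3 genes the heated libraries did not overlap between the lines, and the same held for NAC103 but not for BZIP60. The share of all genes apart in this way was not counted.

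The 2 genes that were higher did so by less. BZIP60 averaged 33.4 ± 4.96 CPM in heated libraries labelled eTK and 23.5 ± 5.27 CPM in heated Col-0 (SD, n = 3 each), a difference of 0.51 ± 0.17 (adjusted p = 0.0188). Its call was lost without heated Col-0 replicate 1 (0.34, adjusted p = 0.0991) or heated eTK replicate 1 (0.42, adjusted p = 0.0763). NAC103 averaged 0.893 ± 0.247 and 0.391 ± 0.131 CPM, a difference of 1.17 ± 0.36 (adjusted p = 0.0136), lost without heated Col-0 replicate 3 (0.97, adjusted p = 0.0598) or heated eTK replicate 3 (0.93, adjusted p = 0.067).

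Because BZIP60 and BZIP28 stand for the splicing arm and the proteolysis arm, their mRNA levels were set against each other within libraries. BZIP60 counts averaged 1.02 times those of BZIP28 in heated libraries labelled eTK, against 1.04 times in their controls (exact permutation p = 0.929). In heated Col-0 they averaged 0.121 times, against 0.974 times in control (exact permutation p = 0.0238, adjusted p = 0.0635 over 16 tests). The heated Col-0 libraries lay below all others. Controls of both lines differed by batch in this ratio. With batch 1 alone the control ratio was 0.899 in the libraries labelled eTK and 0.773 in Col-0. Heated against control then gave an exact permutation p of 0.3 in the libraries labelled eTK and 0.1 in Col-0. NAC062 counts averaged 4.77 times those of NAC089 in heated libraries labelled eTK, against 3.25 times in their controls (exact permutation p = 0.0238, adjusted p = 0.0635). In heated Col-0 they averaged 4.52 times, against 4.26 times in control (exact permutation p = 0.738). Controls of both lines differed by batch here too. With batch 1 alone the ratio was 4.77 in heated and 2.80 in control libraries labelled eTK, and 4.52 and 3.47 in Col-0. Heated and control groups of batch 1 did not overlap in either line (exact permutation p = 0.1 for each, the smallest that 3 against 3 allow).

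Ordered by their means in batch 1, where all 4 groups have libraries, BZIP28 and TIN1 stood highest in heated Col-0 and second in heated libraries labelled eTK, with that step passing for both. Steps were tested in the model over all 18 libraries with its batch term. A tested difference can therefore point against the batch 1 order. For IRE1A, controls labelled eTK averaged 33.2 CPM and Col-0 controls 32.5 CPM in batch 1, with a tested difference of -0.19. Between heated libraries labelled eTK and control Col-0, where 62.0% of genes were called, BZIP28 was not called (0.16, adjusted p = 0.129). Even so, every one of those heated libraries lay above every Col-0 control for BZIP28. For NAC062 and NAC089 both heated groups stood above both controls, and for IRE1B both controls above both heated groups, with a call only at that step (for NAC062 and NAC089 heated Col-0 over control eTK libraries, where 68.7% of genes were called). For IRE1A and BAG7 no step between neighbours was called.

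Genes with the most similar pattern over the 18 libraries were sought by the root mean square difference of centred log2 CPM. For BZIP28 they were AT2G18510 at 0.125, AT5G04410 at 0.164 and AT5G03340 at 0.174. AT2G18510 changed by 0.37 with heat in the libraries labelled eTK and by 2.77 in Col-0 on the log2 scale. For BZIP60 they were AT1G64610 at 0.133, AT1G28680 at 0.150 and AT4G09750 at 0.157. For BAG7 they were AT3G28700 at 0.0774, AT3G12670 at 0.0843 and AT3G61540 at 0.0892. TIN1 had no close match: the nearest genes, ATMG01050, AT2G07768 and AT2G07661, lay at 0.826, 0.828 and 0.877 and averaged under 1 CPM.

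The wider pathway was described by 38 further genes, all tested, in 6 roles. This list was chosen with earlier results of these data known. Its counts are therefore a description and not a test of the pathway against all genes. In the libraries labelled eTK heat called 27 higher and 4 lower, where 27.0% and 28.7% of all genes were called, with a median log2 difference of 0.98, against -0.01 over all genes. In Col-0 it called 21 higher and 10 lower, where 31.2% and 32.4% of all genes were called, with a median of 0.29, against -0.04. The response was higher in the libraries labelled eTK for 21 and lower for 3, where 12.5% and 12.6% of all genes were called, with a median difference of 0.66, and for 34 and 3 with a median of 1.29 under library size alone. The shares given here are also those against which the role counts below stand. With library size alone the Col-0 counts became 14 higher and 20 lower with a median of -0.43, so the direction of the Col-0 median depends on the scaling. Those in the libraries labelled eTK became 26 and 5. Heat left 21 higher and 8 lower in Col-0 with batch 1 alone.

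**Figure D5:**
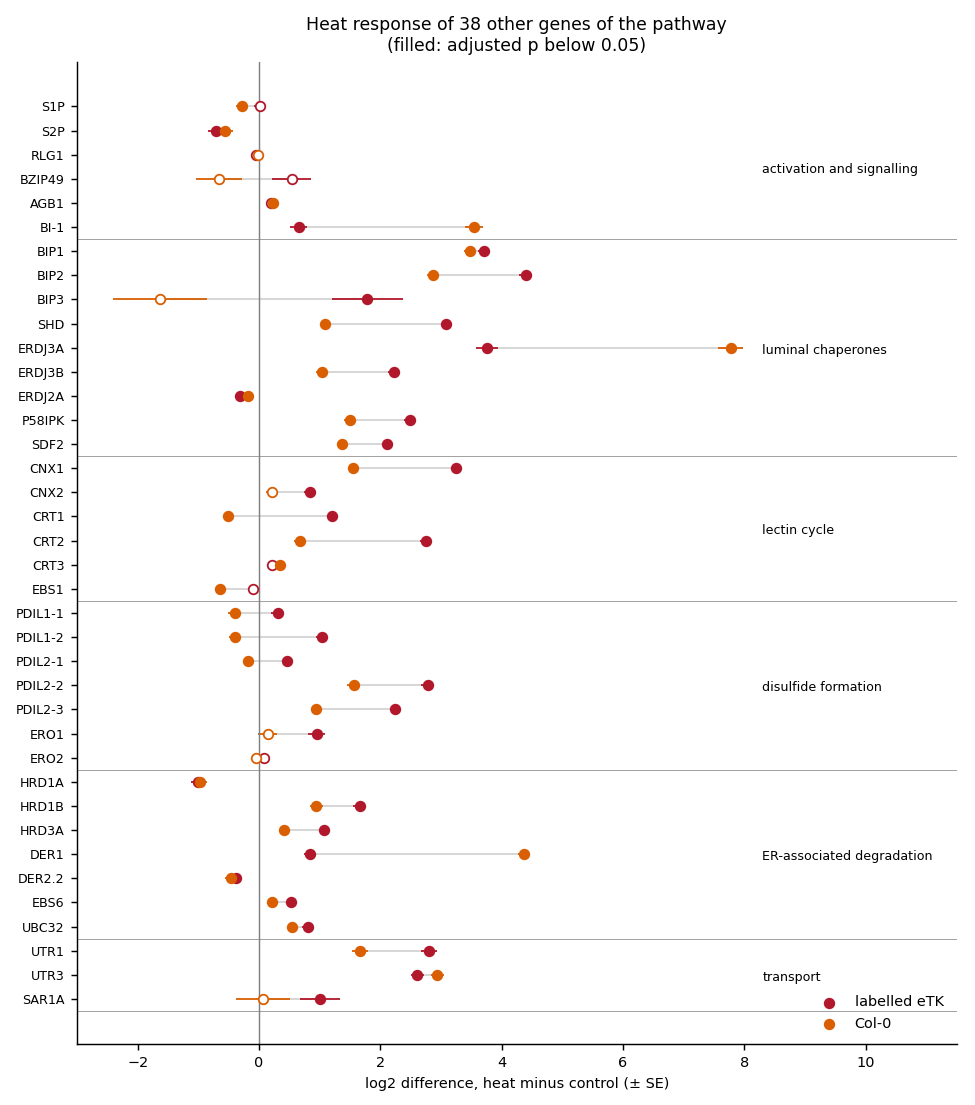
Log2 difference, heat minus control, with standard errors for 38 further genes of ER protein folding, grouped by role, with filled points where the adjusted p was below 0.05. For most chaperones, lectins and disulfide enzymes the points of the libraries labelled eTK lay to the right of Col-0, while ERDJ3A, DER1 and BI-1 lay far to the left.

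Among 9 luminal chaperones, heat called 8 higher and 1 lower in the libraries labelled eTK and 7 higher and 1 lower in Col-0. BIP2, an ER HSP70, averaged 5142 ± 97.5 CPM in heated and 247 ± 20.3 CPM in control libraries labelled eTK, against 1531 ± 84.3 CPM in heated and 211 ± 19.3 CPM in control Col-0. Its log2 differences were 4.39 and 2.87, and the difference between the lines was 1.52 ± 0.13 (adjusted p = 5.18e-08). BIP1, a near-identical copy with which reads may be split, averaged 2245 ± 58.3 CPM in heated and 172 ± 10.3 CPM in control libraries labelled eTK, against 2986 ± 158 CPM in heated and 269 ± 21.0 CPM in control Col-0. Its rises were 3.70 and 3.47, and their difference of 0.23 ± 0.12 did not pass (adjusted p = 0.164). With library size alone that difference was 0.87 (adjusted p = 7.27e-06). Because reads may be split, the values of BIP1 and BIP2 are both uncertain. ERDJ3A, an ER J-domain co-chaperone, went the other way, at 26.6 ± 1.78 CPM in heated and 2.02 ± 0.211 CPM in control libraries labelled eTK, and 1109 ± 209 CPM in heated and 5.23 ± 1.27 CPM in control Col-0. Its rises of 3.76 and 7.78 differed by -4.02 ± 0.24 (adjusted p = 2.95e-10). The inducible BIP3 was scarce, at 1.94 to 2.24 CPM in heated and 0.188 to 1.19 CPM in control libraries labelled eTK, and 0.0420 to 0.739 CPM in heated and 0.275 to 1.19 CPM in control Col-0, with a difference between the lines of 3.42 ± 0.93 (adjusted p = 0.0111). With batch 1 alone this BIP3 difference was 2.11 (adjusted p = 0.0851) and the rise in the libraries labelled eTK 1.25 (adjusted p = 0.0544). Its controls averaged 0.193 CPM in batch 2 and 0.882 CPM in batch 1 in the libraries labelled eTK, and 1.01 and 0.621 CPM in Col-0. ERDJ2A fell slightly in both lines, by 0.31 and 0.18, the Col-0 call being lost with batch 1 alone (adjusted p = 0.0541).

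In the lectin cycle of 6 genes, 4 were called higher and 2 not called in the libraries labelled eTK, and 3 higher and 2 lower in Col-0. CNX1, the membrane lectin calnexin, rose by 3.25 ± 0.08 and 1.55 ± 0.08 on the log2 scale, and CRT2, a calreticulin, by 2.75 ± 0.10 and 0.67 ± 0.10, in the libraries labelled eTK and in Col-0. With library size alone the Col-0 value of CRT2 was -0.05 (adjusted p = 0.702). The difference between the lines for CRT2 was 2.08 ± 0.13 (adjusted p = 3.99e-10). EBS1, the glucosyltransferase that marks unfolded glycoproteins, was at -0.10 ± 0.07 (adjusted p = 0.254) in the libraries labelled eTK and fell by 0.65 ± 0.07 in Col-0 (adjusted p = 2.88e-07).

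Of 7 genes for disulfide formation, 6 were higher and 1 not called in the libraries labelled eTK, and 2 higher and 3 lower in Col-0. PDIL2-2 rose by 2.78 and 1.56, while PDIL1-2 rose by 1.03 in the libraries labelled eTK and fell by 0.40 in Col-0, a difference of 1.43 ± 0.13 (adjusted p = 1.51e-07). PDIL1-1 rose by 0.31 in the libraries labelled eTK, a call lost with library size alone (adjusted p = 0.123), and fell by 0.40 in Col-0.

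Of 7 genes for ER-associated degradation, 5 were higher and 2 lower in each line. DER1, a derlin of the channel through which misfolded proteins leave the ER, averaged 40.9 ± 0.657 CPM in heated and 22.2 ± 2.35 CPM in control libraries labelled eTK, and 543 ± 69.8 CPM in heated and 25.2 ± 1.39 CPM in control Col-0, a difference between the lines of -3.54 ± 0.13 (adjusted p = 8.73e-14). HRD1B, a ubiquitin ligase, rose by 1.66 and 0.94 (Col-0 0.22 with library size alone, adjusted p = 0.0750), whereas its paralog HRD1A fell by 1.01 and 0.97.

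Of 6 genes for activation and signalling, heat called 1 higher and 1 lower in the libraries labelled eTK, and 2 of each in Col-0. BI-1, a cell death suppressor of the ER membrane, averaged 113 ± 13.8 CPM in heated and 67.3 ± 13.4 CPM in control libraries labelled eTK, and 945 ± 147 CPM in heated and 75.3 ± 6.13 CPM in control Col-0, a difference of -2.89 ± 0.20 (adjusted p = 1.37e-09). S2P, the Golgi protease that releases BZIP28, fell by 0.72 and 0.56. In the transport role of 3 genes, all rose in the libraries labelled eTK and 2 in Col-0, with UTR1 at 2.80 and 1.67 and UTR3, both nucleotide sugar transporters, at 2.61 and 2.94. ERDJ3A, DER1 and BI-1 were the 3 pathway genes with a lower response in the libraries labelled eTK, as BZIP28, BZIP17 and TIN1 had among the 10.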

How the data were processed

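The authors deposited a table of read counts per gene for 18 Arabidopsis libraries; fastp 0.24.0, STAR 2.7.9a and featureCounts of Subread 2.0.6 are named in the submitters' processing notes. The genome build, annotation and strand setting are not given in the sources used here. All 18 columns matched a sample (0 did not), and 36 Marchantia samples were not analysed here. Counts were filtered with edgeR 4.0.16's filterByExpr in R 4.3.3, scaled by TMM and fitted by robust quasi-likelihood with a term for each of the 4 groups and for batch. Tests used all 22696 genes passing the filter, with Benjamini-Hochberg adjustment. The method was also tried on simulated counts with the same spread for all genes, no batch difference and few changed genes. That trial does not cover the batch differences and the many heat-responsive genes of these data. Replicate libraries all differed beyond sampling noise. Batch comparisons were fitted on the control libraries alone, over 21927 genes. Ratios of 2 members within a library were compared by exact two-sided permutation tests in SciPy 1.17.1. CPM levels were divided by exon length for comparisons between genes. Named pathway genes were those with the largest called rise and fall in each role in either heat response and in their difference, given with their values in the other line. BIP1 was added as the near-identical copy of BIP2. Gene positions, promoters and the coding sequence came from RefSeq's TAIR10.1. The members and gene lists were chosen with earlier results of these data known. Alternatives were another scaling, filter and tool (DESeq2 1.42.0), batch 1 alone, only the groups compared, halved counts, a replicate block, each library left out and, chosen after seeing the data, a batch term for each line.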

Additional observations from a re-analysis of the deposited data

Results flagged for a closer look

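The response to heat differed between the lines, by the test of the difference itself, for 4 of the 10 genes. The log2 response in the libraries labelled eTK minus that in Col-0 was 0.70 for BZIP60, -0.71 for BZIP17, -2.28 for BZIP28 and -2.05 for TIN1. The BZIP60 call was lost with batch 1 alone (0.41, adjusted p = 0.188), with a batch term for each line (0.41, adjusted p = 0.155) and without heated Col-0 replicate 1 (adjusted p = 0.0509) or heated eTK replicate 1 (adjusted p = 0.0515), and BZIP17 was at -0.08 (adjusted p = 0.543) with library size alone. Among control libraries, the difference between batch 2 and batch 1 was not the same in the 2 lines for BZIP60, at -0.58 on the log2 scale (libraries labelled eTK minus Col-0). In 20 control groups of 6 libraries checked for a single library far from the others at the 95% level, 0 stood out. Heated groups, with 3 libraries each, were not checked. The control groups pool 2 batches, and a difference between batches can hide such a library.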

How the results depend on the processing

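The 70 values recomputed were log2 differences of the members and counts of calls. A log2 difference was rated unchanged if no call was gained, lost or turned around, and a count if it stayed close. Uncalled differences could change sign under this rating. All 70 were rated unchanged with RLE factors, with no filter on low counts, with halved counts and with the replicate number as a block. With DESeq2 69 were. The replicate numbers do not pair the libraries: 1 of 21 same-number pairs had a correlation of deviations over 0.1 (range -0.152 to 0.18). With the replicate block 6917 genes were called higher and 7226 lower in Col-0. Library size alone moved most: the Col-0 heat response called 1861 genes higher and 15306 lower (members 3 and 6), the difference between lines 14323 and 1024 (members higher 7) and the heated lines 15271 and 1668 (members higher 7). It reversed BZIP17 in Col-0 to -0.29, NAC089 and BAG7 in the difference between lines to 0.43 and 0.59, and BAG7 between heated lines to 0.47; the scaling itself shifted the median of all genes. Batch 1 alone, and a batch term for each line (chosen after seeing the data), left 0 members higher in the difference between lines and 0 lower in control; batch 1 alone also gave control log2 ratios between lines of 0.0532 for BZIP28 over BZIP17 and 0.13 for IRE1A over IRE1B. Fitting only the groups compared called 1 member higher in control. Leaving out 1 library, members higher in the difference between lines ranged from 0 to 1, in control higher from 0 to 1 and lower from 1 to 3, between heated lines higher from 1 to 2, and lower after heat in the libraries labelled eTK from 1 to 3. The cause of these changes was not tested. Depth limits NAC103, with as few as 10 counts. Of the nonzero counts, 75.35% to 83.28% per library were even, so those 10 counts may stand for fewer fragments. The reason for the even counts was not tested.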
